A study of Mus musculus with 4 samples.

Results

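The genes described here are Nr1h3, which encodes the liver X receptor LXRα, its relative Nr1h2, and 8 genes that LXR is known to control in lipid export and lipid synthesis (Abca1, Abcg1, Mylip, Srebf1, Scd1, Pltp, Apoe and Lpcat3). They were chosen by name, and each was followed on every array probe that carries it as its only gene symbol. This gave 13 probes for 9 of the 10 genes, out of 34885 probes with a single symbol and 45281 in all. Nr1h2 was not analysed here.

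The arrays were 4 single-colour Illumina bead arrays of marginal zone macrophages sorted from the spleens of BXD2 mice, a recombinant inbred strain with a lupus-like autoimmune disease. The sort took cells with low CD11b and surface SIGN-R1 that lacked F4/80 and I-Ab. The labels give 2 arrays of BXD2 mice injected with PBS (the controls), 1 array of BXD2-Ifnar-/- mice, which lack the type I interferon receptor and were also injected with PBS, and 1 array of BXD2 mice injected intravenously with 25 µg sLTβR-Fc, a soluble decoy receptor for lymphotoxin. All mice were 2.5 months old and were killed 10 hours after the injection, and each array pooled the cells of 2 mice. No array of mice given a control Fc protein was analysed here, so loss of lymphotoxin signalling and other effects of injecting the protein cannot be told apart. Nothing in the labels tells if the PBS arrays drew on different mice, so the spread between them may be technical.

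LXRα is a nuclear receptor that binds oxysterols, pairs with a retinoid X receptor and switches on genes by which a macrophage sheds cholesterol. Marginal zone macrophages of the spleen depend on it to form. Its targets include the cholesterol pumps ABCA1 and ABCG1, the carriers apolipoprotein E and phospholipid transfer protein, the ubiquitin ligase MYLIP (IDOL), which removes the LDL receptor, and SREBP-1c, stearoyl-CoA desaturase 1 and LPCAT3, which shape fatty acids and membrane phospholipids.

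The DNA element that LXR and its partner bind is a repeat of hexamers spaced by 4 bases. Of the 10 genes, 8 had start-site windows of 300 bases in the RefSeq promoter table (mouse build GRCm38.p6), 13 windows in all. The element GGGTTA followed after any 4 bases by CGGTCA, spelled after these windows had been read and searched on both strands, lay in 1 window of Abca1 and in 1 of the windows of Srebf1. It was found in 3 of all 32851 windows (0.00913%). The textbook form, AGGTCA repeated after any 4 bases, was in 5 of all windows (0.0152%) and in 0 of the 13. The stretches around the matches are shown because Abca1 and Srebf1 are the standard reporters of LXR activity among these genes. They run 5′ to 3′ on the minus strand, in the direction of the gene, with the matches in capitals. The site reads in reverse orientation and lies 67 to 52 bases before the start of Abca1 (chr4:53159917-53159992) and 182 to 167 bases before a start of Srebf1 (chr11:60210557-60210683). The second run of capitals in Srebf1 matches a shorter form, GGGTTA followed after any 4 bases by CGG, which 0.125% of all windows hold and which lies within the longer motif too.
Abca1: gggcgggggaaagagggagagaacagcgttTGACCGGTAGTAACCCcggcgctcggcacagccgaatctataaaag
Srebf1: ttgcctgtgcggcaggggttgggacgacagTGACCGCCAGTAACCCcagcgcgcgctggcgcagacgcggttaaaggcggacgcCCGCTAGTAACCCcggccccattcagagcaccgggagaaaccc

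Intensities are given after quantile normalisation between arrays, in linear units that still contain the background glow of the array, so differences of dim genes are understated. A probe counted as above background when its deposited value passed the 95% point of the noise of its array, a limit of 106 to 116. A log2 difference sets an array against the mean of the controls after raising values to a floor of 111, the mean of those limits. A gene was represented by its brightest probe. The 2-fold call asked for a log2 difference of 1 or more from both PBS arrays, with the same sign. With so few arrays, precision is limited. Between 51.98% and 53.9% of probes were above background, and the PBS pair had r = 0.993 over 14681 genes (genes are not independent replicates) and 31 genes 2-fold apart. Of the cell type markers, Cd209b, which encodes SIGN-R1, was dim, at 1.17 to 1.34 times the background limit, and Siglec1 of metallophilic macrophages was not well above background on any array. Of 8 neutrophil markers, 7 lay below both PBS arrays in Ifnar-/- (median -1.4) and 5 above both after sLTβR-Fc (median 0.31). The other marker, Retnlg, rose from 300 and 268 in the PBS pair to 1286 in Ifnar-/-. The summed intensity of the 8 was 46100 and 31580 in the PBS pair, 17050 in Ifnar-/- and 57280 after sLTβR-Fc. The part of neutrophils in the differences below was not tested. As background for all marker counts, 41.5% of all genes lay above both PBS arrays and 30.1% below both in Ifnar-/-. After sLTβR-Fc these shares were 42.8% and 30.8%.

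Of the 9 genes with a probe, 6 were above background on all 4 arrays (Nr1h3, Abca1, Abcg1, Scd1, Apoe and Lpcat3). Pltp passed on 2 arrays and Mylip on 1, and Srebf1 passed on none. Scd1 was the member that differed most, higher in Ifnar-/- than in the PBS pair and lower after sLTβR-Fc. Lpcat3 was lower after sLTβR-Fc on its brighter probe. The receptor gene itself and the export genes stayed within a log2 of 0.27 of the control mean on both arrays.

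**Figure D1:**
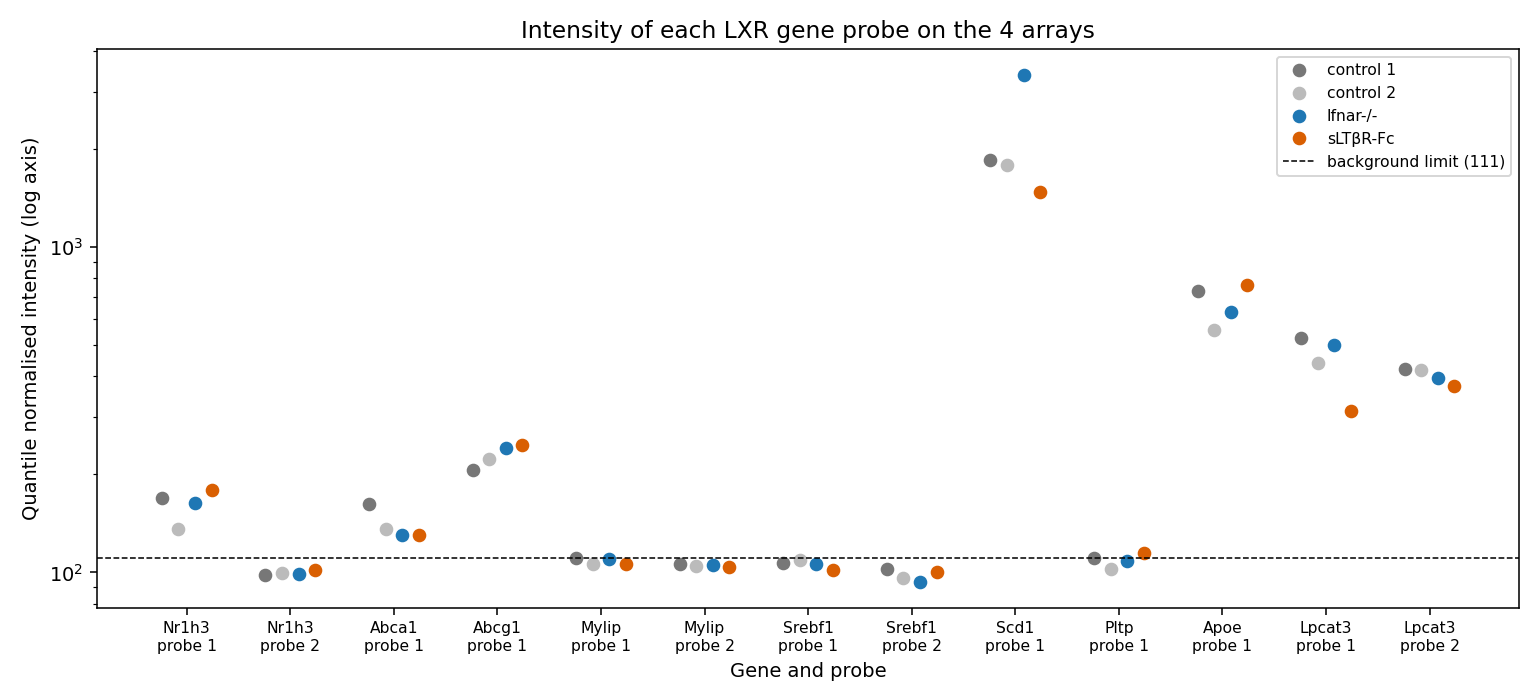
Quantile normalised intensity (log axis) of all 13 probes on the 2 PBS arrays, the sLTβR-Fc array and the Ifnar-/- array, 1 point for each array, with the background limit of 111 dashed. Scd1 stands highest in Ifnar-/- (3379 against 1856 and 1781) and Lpcat3 probe 1 lowest after sLTβR-Fc (314), while Srebf1, Mylip and the second Nr1h3 probe lie at or under the dashed line. Heights of different probes are not comparable.

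Nr1h3 was measured on its brighter probe at 169.9 and 136 in the PBS pair, 163 in Ifnar-/- and 179 after sLTβR-Fc. The Ifnar-/- value lay between the controls and the sLTβR-Fc value lay just above the higher of them. In deposited values the probe was 1.69 and 1.23 times the limit in the PBS pair, 1.44 times in Ifnar-/- and 1.41 times after sLTβR-Fc. The log2 difference was 0.10 ± 0.21 (SE) for Ifnar-/- and 0.24 ± 0.21 for sLTβR-Fc, with adjusted p = 0.813 and 0.599 in limma over all genes, and both turned to -0.11 in the values as deposited. The limma fit over all genes recovered no planted change on simulated data. Its adjusted p-values, here and below, therefore do not separate changed from unchanged genes. Limma adjusted p-values given with no fit named are from it. Control 2 stood at 0.798 times control 1, a gap wider than either difference. As background for deposited values here and below, the median of all genes as deposited was -0.097 in Ifnar-/- and -0.18 after sLTβR-Fc. The second Nr1h3 probe was not well above background on any array (0.878 to 0.922 times the limit). In a bulk sort, fewer cells of a type and less RNA per cell cannot be told apart.

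ABCA1 passes cholesterol to lipid-poor apolipoprotein A-I. Abca1 read 162 and 136 in the PBS pair, 130.5 in Ifnar-/- and 130.0 after sLTβR-Fc. The arrays of the altered groups lay under both PBS arrays and close to each other, at 1.17 and 1.14 times the limit against 1.59 and 1.24 times. The log2 differences were -0.19 ± 0.16 and -0.19 ± 0.16 (limma adjusted p = 0.600 and 0.564), and the sLTβR-Fc value turned to 0.069 under median scaling.

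ABCG1 moves cholesterol on to mature high-density lipoprotein. Abcg1 read 207 and 223 in the PBS pair, 242 in Ifnar-/- and 246 after sLTβR-Fc. These last values lay above both PBS arrays, the reverse of Abca1. The log2 differences were 0.17 ± 0.13 and 0.20 ± 0.13 (limma adjusted p = 0.552 and 0.478). In the values as deposited they were -0.086 and -0.30, where the median of all genes was itself at -0.097 and -0.18.

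Apolipoprotein E carries the exported lipid. Apoe read 733 and 554.5 in the PBS pair, 631 in Ifnar-/- and 766 after sLTβR-Fc. The controls were further apart from each other (0.757-fold) than the Ifnar-/- array was from their mean (log2 -0.016 ± 0.26), and the sLTβR-Fc array lay 0.064 above control 1 and 0.47 above control 2. The limma adjusted p was 1.00 and 0.636, and the sLTβR-Fc difference of 0.27 (log2) turned to -0.42 in the values as deposited.

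Phospholipid transfer protein moves phospholipid between lipoproteins. Pltp read 110.4 and 102 in the PBS pair, 108 in Ifnar-/- and 114.5 after sLTβR-Fc. Only control 1 (1.00 times its limit) and the sLTβR-Fc array (1.03 times) were above background. Mylip, the ubiquitin ligase gene, read 110.4 and 106.5 in the PBS pair, 110.0 in Ifnar-/- and 106 after sLTβR-Fc on its brighter probe, and passed the limit on control 1 alone (1.00 times). At a limit set at the 99% point of the noise, chosen after these values were seen, Mylip passed on 0 arrays and Pltp on 1.

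SREBP-1c turns on fatty acid synthesis and is made from Srebf1. Both of its probes were not well above background on any array, at 0.917 to 0.988 times the limit for the brighter and 0.838 to 0.921 times for the dimmer. No fold change is given for it.

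Stearoyl-CoA desaturase 1 puts the double bond into stearate and palmitate. Scd1, measured on 1 probe, read 1856 and 1781 in the PBS pair, 3379 in Ifnar-/- and 1470.0 after sLTβR-Fc. The controls lay close together, the Ifnar-/- array far above them and the sLTβR-Fc array below them. The Ifnar-/- array was 1.86-fold above the control mean (log2 0.86 above control 1 and 0.92 above control 2), just short of the 2-fold call, and 98.8% of genes had a smaller or more negative difference. It was 1.5-fold above both PBS arrays, as were 2.73% of all genes. The sLTβR-Fc array was 1.24-fold below the control mean (log2 -0.34 and -0.28 from the controls). As deposited the sLTβR-Fc difference was -0.996 and under median scaling -0.55, beside -0.31 here, and the Ifnar-/- difference was 0.54 as deposited. Directly against each other, the Ifnar-/- array was 2.30-fold above the sLTβR-Fc array. This was the single member 2-fold apart there, beside 0.708% of the genes higher and 1.55% lower by that much.

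The spread behind these Scd1 differences comes from the controls alone, and the lone arrays are assumed to share it. In limma over 14681 genes the differences were 0.89 ± 0.068, -0.31 ± 0.068 and 1.20 ± 0.079 (log2, SE) with adjusted p = 0.211, 0.214 and 0.176. That fit recovered no planted change when tested on simulated data, so its adjusted p-values do not separate changed from unchanged genes. It called 0 genes in any comparison, with 2872, 3404 and 3133 genes at an unadjusted p under 0.05. Over only the 10778 genes that passed the background limit on all arrays (the restricted fit), the limma adjusted p for Scd1 was 2.7e-05 for Ifnar-/- and 7.26e-07 for Ifnar-/- against sLTβR-Fc, and 0.228 for sLTβR-Fc against the controls. The first ranged from 3.51e-05 to 0.175 and the second from 1.01e-06 to 0.111 under other scalings, floors and background handling, so the calls of the restricted fit were lost in part of them. The direction of Scd1 was the same in all 3 comparisons under every alternative. In its main setting the restricted fit took the spread of a gene almost wholly from genes of like intensity. The gap between a gene's own controls hardly entered its adjusted p.

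**Figure D2:**
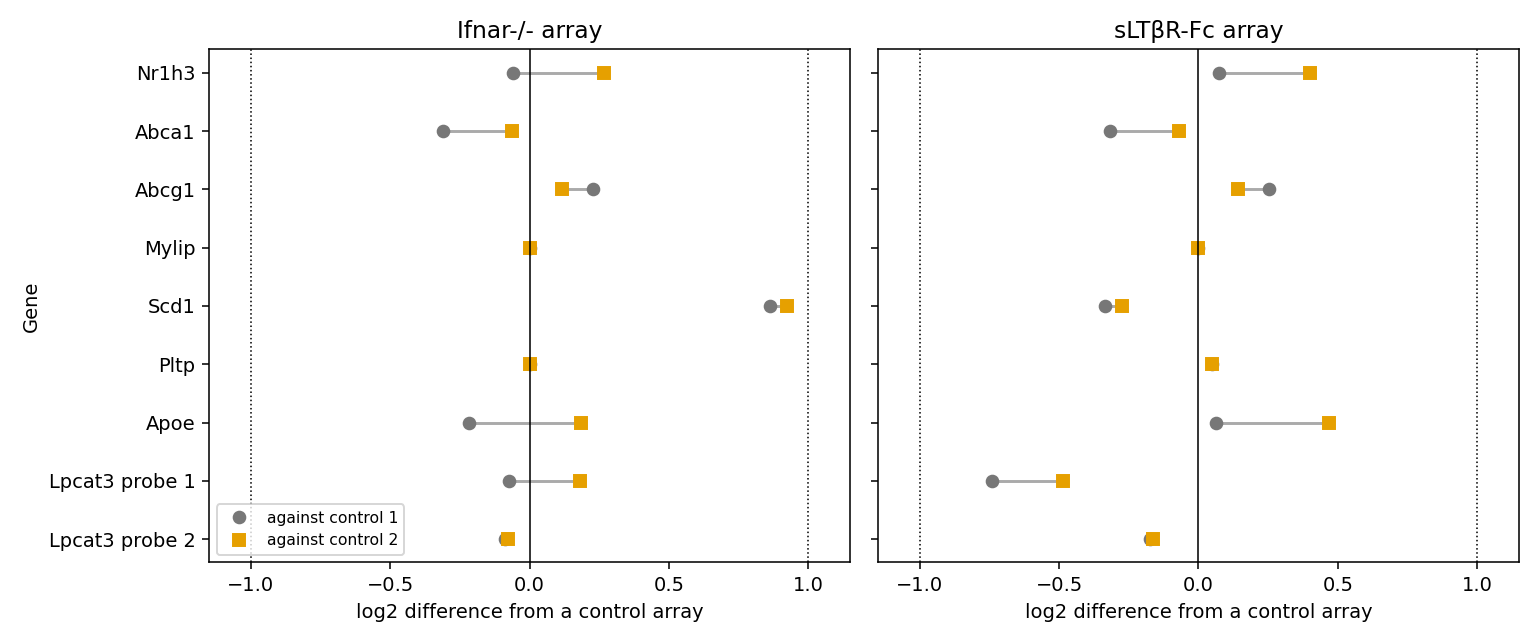
Log2 difference of each gene from control 1 (circles) and from control 2 (squares), on the left the Ifnar-/- array and on the right the sLTβR-Fc array, with dotted lines at a 2-fold difference. Scd1 lies at 0.86 and 0.92 on the left with its points together, and Lpcat3 probe 1 at -0.74 and -0.49 on the right, whereas the points of Nr1h3 and Apoe straddle 0 on the left.

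Markers of B cells moved with Scd1 on their brightest probes. Of 7 listed markers 4 were compared, and all 4 were above both PBS arrays in Ifnar-/- and below both after sLTβR-Fc, with medians of 0.63 and -0.53 (log2). Their summed intensity was 13790 and 13390 in the PBS pair, 20540 in Ifnar-/- and 9089 after sLTβR-Fc. Blk, a B cell kinase, read 3181 and 2828 in the PBS pair, 4958 in Ifnar-/- and 2143 after sLTβR-Fc. Cr2, the complement receptor CD21, read 1007 and 845 in the PBS pair, 1554 in Ifnar-/- and 456 after sLTβR-Fc. Cd79b of the B cell receptor differed by 0.54 and -0.58 and Ms4a1 (CD20) by 0.29 and -0.26. Further probes gave 0.88 and -0.087 for Cd79b, 0.69 and -0.07 for Blk (median of 2 probes), and 0.12 and 0 for Cr2. The fall after sLTβR-Fc was thus small or absent on these further probes. The part of B cells in the Scd1 difference was not tested.

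**Figure D3:**
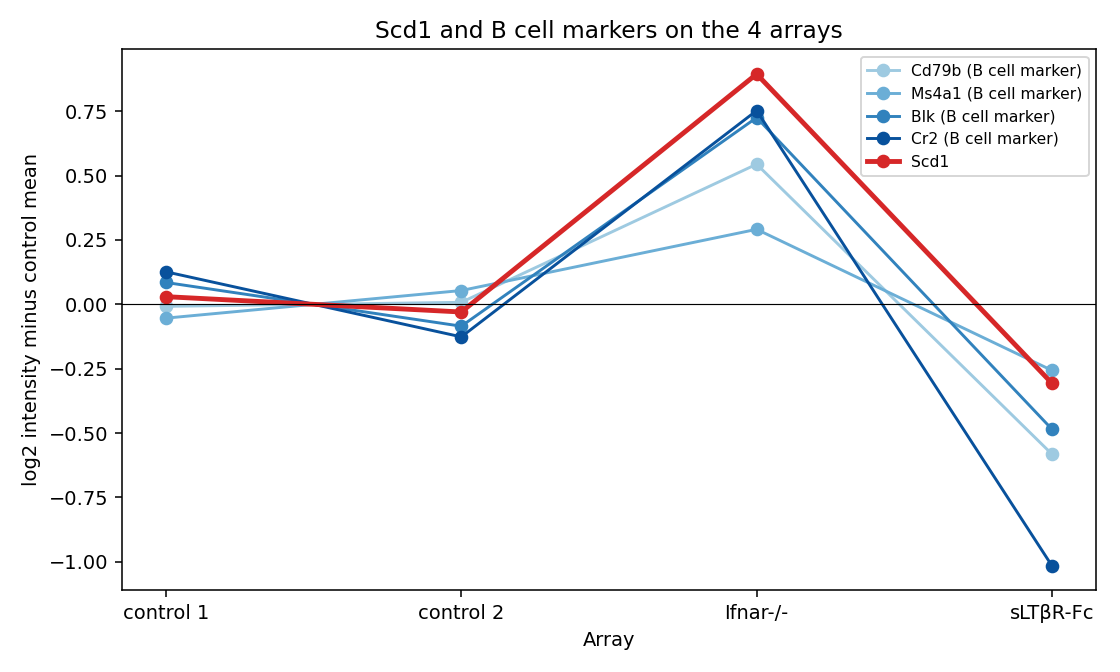
Log2 intensity of Scd1 (red) and of the 4 compared B cell markers (blue) on each array, minus the mean of the controls. Lines join the values of 1 probe and have no meaning between arrays. On the probes shown, Scd1 and all 4 markers lie above the controls in Ifnar-/- and below them after sLTβR-Fc.

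LPCAT3 builds polyunsaturated chains into phospholipids. Lpcat3 read 525 and 439.6 in the PBS pair, 499 in Ifnar-/- and 314 after sLTβR-Fc on its brighter probe. The sLTβR-Fc array lay below both PBS arrays and the Ifnar-/- array lay between them. The sLTβR-Fc array was 1.53-fold below the control mean (log2 -0.61 ± 0.18, limma adjusted p = 0.254), and 3.08% of genes lay lower. The log2 difference was -1.22 as deposited and -0.39 as the mean of both probes. In the restricted limma fit the adjusted p was 0.0236, with a range of 0.00246 to 0.541 over the alternatives. The second probe disagreed in size. It read 421 and 418 in the PBS pair, 396 in Ifnar-/- and 373 after sLTβR-Fc, which is 1.12-fold below the control mean (adjusted p = 0.597 in limma over the probes above background on all arrays). Both Lpcat3 probes were lower after sLTβR-Fc than on either control. T cell markers were lower on this array too, 6 of 6 below both PBS arrays at a median of -0.79, and their summed intensity was 8202 and 9717 in the PBS pair and 4883 after sLTβR-Fc. They were also lower in Ifnar-/-, 5 of 6 below both PBS arrays at a median of -0.57, with a sum of 6091. Eosinophil markers were higher after sLTβR-Fc, 5 of 6 above both PBS arrays, with sums of 5212 and 5901 against 28060. Their sum in Ifnar-/- was 4447. Mast cell and basophil markers were also higher after sLTβR-Fc, 5 of 5 above both PBS arrays at a median of 1.5. Their sums were 8131 and 11360 in the PBS pair, 25370 after sLTβR-Fc and 4572 in Ifnar-/-. The part of these cells in the Lpcat3 values was not tested.

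As a group, 8 members passed the filter of at least 1 array above background, and counts are over these 8. On the Ifnar-/- array 0 members were higher and 0 lower by 2-fold, against 0.565% and 0.940% of all genes. On the sLTβR-Fc array 0 members were higher and 0 lower by 2-fold, against 1.01% and 0.470%. At 1.5-fold the counts were 1 higher (Scd1) and 0 lower in Ifnar-/-, against 2.73% and 3.19% of all genes, and 0 and 0 after sLTβR-Fc, against 3.23% and 2.36%. Between these arrays 2 members, Scd1 and Lpcat3, were 1.5-fold higher in Ifnar-/- and 0 lower, against 3.76% and 4.95%. On the Ifnar-/- array 2 lay above both PBS arrays (Abcg1 and Scd1) and 1 below both (Abca1), where 41.5% and 30.1% of all genes did. On the sLTβR-Fc array 4 lay above both (Nr1h3, Abcg1, Pltp and Apoe) and 3 below both (Abca1, Scd1 and Lpcat3), where 42.8% and 30.8% did. The median log2 difference was 0.027 and 0.023, beside 0 and 0.0022 over all genes. As deposited the member medians turned to -0.097 and -0.34, beside -0.097 and -0.18 over all genes. In the restricted limma fit 1 of 6 members was called higher in Ifnar-/- (9.14% of all genes) and 0 lower (9.48%), and 1 of 6 was called lower after sLTβR-Fc (9.29%) and 0 higher (13.2%). The same fit called 2 of 6 higher (Scd1 and Lpcat3) and 0 lower in Ifnar-/- than after sLTβR-Fc (6.71% and 9.15%). For Lpcat3 that p was 0.0448 and ranged from 0.0374 to 0.577 over the alternatives. The comparisons with the PBS pair use the same controls.

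Enzymes that make and break down oxysterols, the ligands of LXR, formed the next list of pathway genes. Of 17 listed genes for oxysterols and cholesterol handling, 15 were compared and 0 were 2-fold apart on either array by their brightest probe, with medians of 0.072 (Ifnar-/-) and 0.069 (sLTβR-Fc). In the restricted limma fit 2 of 12 were called higher in Ifnar-/- (Cyp27a1 and Lrp1) and 1 of 12 after sLTβR-Fc (Hsd3b7), with 0 lower on both. Of all genes in that fit, 9.14% were called higher and 9.48% lower in Ifnar-/-. After sLTβR-Fc these shares were 13.2% and 9.29%. They are the background for the counts called here and in the lists below. Other settings of the restricted fit were looked at for the members only, where some calls were lost. Whether the calls in these lists would hold under them was not tested. Cyp27a1, the mitochondrial sterol 27-hydroxylase, read 365 and 461 in the PBS pair, 832.5 in Ifnar-/- and 544 after sLTβR-Fc. It was 2.03-fold the control mean in Ifnar-/- (log2 1.19 above control 1 and 0.85 above control 2). Its further probes gave log2 1.32 and 1.00, so all 3 probes were at a log2 of 1.00 or more. The probe at 1.32 met the 2-fold call, at 1.38 above control 1 and 1.27 above control 2. Dendritic cell markers were higher on the same array, 6 of 7 above both PBS arrays at a median of 0.75 (summed intensity 4396 and 4055 against 5254). NK cell markers were higher there too, 3 of 3 above both PBS arrays at a median of 1.2 (summed intensity 1955 and 2335 against 4332). After sLTβR-Fc 1 of 3 NK cell markers lay above both PBS arrays and 1 below both. The part of dendritic cells and NK cells in the Cyp27a1 value was not tested.

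Hsd3b7, an enzyme that clears 7α-hydroxylated oxysterols, read 612 and 736 in the PBS pair, 764 in Ifnar-/- and 1172 after sLTβR-Fc. The sLTβR-Fc array was 1.75-fold the control mean and the further probe gave 1.34-fold. Ch25h, which makes 25-hydroxycholesterol, was close to background on every array, at 109.8, 112, 108 and 117.

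Partners of LXR came next. Of 13 retinoid X receptors and coregulators 9 were compared and 0 were 2-fold apart on either array by their brightest probe (medians 0.12 and 0.085, and -0.04 and -0.41 as deposited). In the restricted limma fit 1 of 8 was called higher (Ep300) and 0 lower in Ifnar-/-, and 1 higher (Tbl1xr1) and 2 lower (Tbl1x and Ncoa1) after sLTβR-Fc. Ep300, a histone acetyltransferase, read 1447 and 1387 in the PBS pair, 2727 in Ifnar-/- and 1033 after sLTβR-Fc on its brightest probe. Its further probes lay at 0.24, -0.037 and -6.91e-06 (log2) in Ifnar-/-, so 1 of 4 probes was far above the controls. After sLTβR-Fc the brightest Ep300 probe lay at -0.46 and the further ones at -0.40, -1.39 and 0.065, and the probe at -1.39 (314 and 288 in the PBS pair against 115) was more than 2-fold below both PBS arrays. Tbl1x, a subunit of the corepressor complex, read 804 and 778 in the PBS pair, 857.5 in Ifnar-/- and 409 after sLTβR-Fc, and its further probes gave -0.0071 and 0.11 for sLTβR-Fc. The 3 further probes of Tbl1xr1 had a median of -0.092 (log2) after sLTβR-Fc, against 0.544 on its brightest probe. Rxrb, the retinoid X receptor β gene, read 2115 and 2351 in the PBS pair, 2923 in Ifnar-/- and 2665 after sLTβR-Fc.

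Of 15 further LXR targets 10 were compared and 0 were 2-fold apart on either array (medians -0.052 and -0.045). The restricted limma fit covered 5 and called 1 higher (Tgm2) and 1 lower (Lpl) in Ifnar-/-, and 2 higher (Tgm2 and Apoc2) and 0 lower after sLTβR-Fc. Lpl, lipoprotein lipase, read 564 and 232 in the PBS pair, 185 in Ifnar-/- and 294 after sLTβR-Fc. Its controls were further apart than any member's, and the difference of -0.97 (log2) in Ifnar-/- was -1.61 from control 1 and -0.33 from control 2, with 0 on the further probe, which was not well above background. The restricted fit gave that gap between the controls little weight. Red pulp macrophage markers were mixed on the same array, with 3 of 5 below both PBS arrays and 1 above both. Slc40a1, the iron exporter, read 2913 and 1594 in the PBS pair and 562 in Ifnar-/-, whereas Adgre1, which encodes F4/80, read 629 and 306 in the PBS pair and 1017 in Ifnar-/-. Their summed intensity was 5202 and 2655 in the PBS pair, 2081 in Ifnar-/- and 3331 after sLTβR-Fc, and their part in the Lpl value was not tested. Apoc2 was dim, at 1.21 to 1.38 times the background limit. Tgm2, transglutaminase 2, read 871 and 580.1 in the PBS pair, 1013 in Ifnar-/- and 1307 after sLTβR-Fc. Its control 2 lay at -0.586 (log2) from control 1, a gap wider than its Ifnar-/- difference of 0.511. The sLTβR-Fc value of Tgm2 was 1.84-fold the control mean and 1.03-fold on the further probe. Its log2 difference was 0.59 from control 1 and 1.17 from control 2.

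The lipid synthesis genes that SREBP factors control were compared last. Of 25 genes of sterol synthesis and uptake 18 were compared and 0 were 2-fold apart (medians 0.043 and 0.012, and -0.22 and -0.51 as deposited). The restricted limma fit called 0 of 16 in Ifnar-/-, and 1 higher (Fdps) and 1 lower (Insig2) after sLTβR-Fc. Lss, lanosterol synthase, read 348 and 379 in the PBS pair and 257 in Ifnar-/-, while its further probes gave 0.27 and -0.037 (log2). Fdps, which makes farnesyl diphosphate, read 901 and 868 in the PBS pair and 1482 after sLTβR-Fc, while its further probe gave -0.30. Of 13 genes of fatty acid synthesis, the list that shares SREBP-1c with Scd1, 11 were compared and 0 were 2-fold apart (medians 0.023 and 0), and the restricted limma fit called 0 of 7 on either array. Fads1, a fatty acid desaturase, read 1205 and 1393 in the PBS pair and 967 in Ifnar-/-. Mid1ip1, an activator of acetyl-CoA carboxylase, read 278.5 and 244 in the PBS pair and 350.4 after sLTβR-Fc. Scd2, the other measured desaturase of the Scd family, read 126 and 150.2 in the PBS pair, 159 in Ifnar-/- and 118 after sLTβR-Fc, above both PBS arrays and then below both. It was dim, at 1.06 to 1.41 times the background limit. Its controls lay 0.252 (log2) apart, a gap wider than either difference (0.21 and -0.222).

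**Figure D4:**
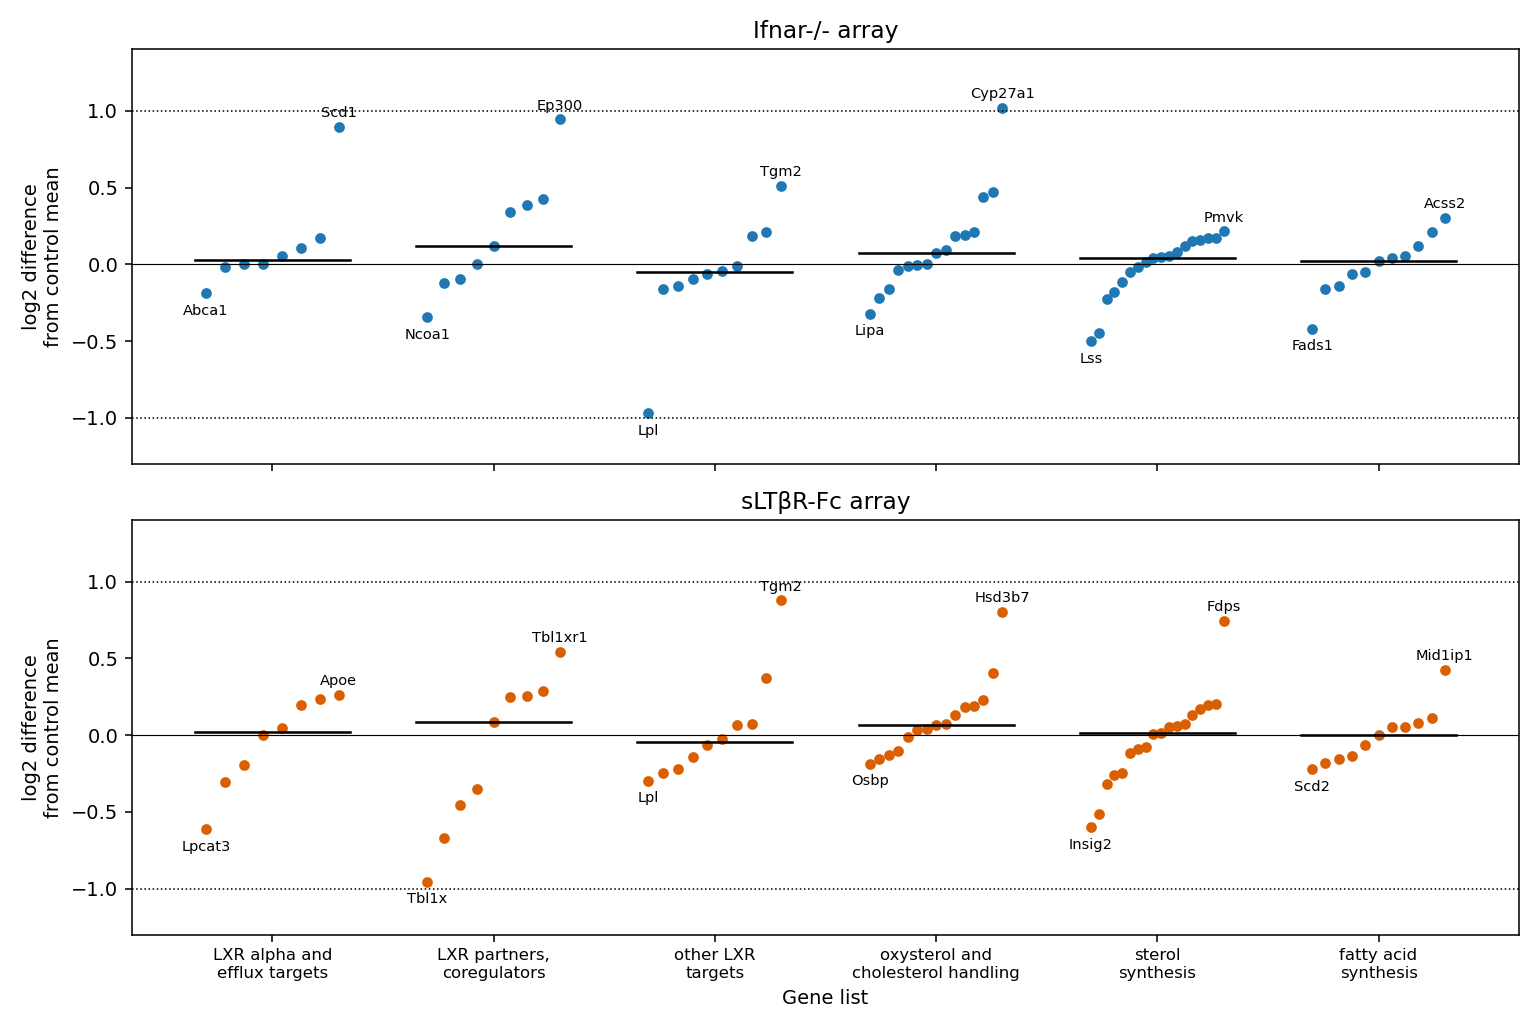
Log2 difference from the control mean of every compared gene, 1 point for each gene, for the LXR genes and the 5 pathway lists, with Ifnar-/- at the top and sLTβR-Fc at the bottom. Bars mark the median, dotted lines a 2-fold difference from the control mean, and the highest and lowest gene of each list are named. The medians lie between -0.052 and 0.12 and Scd1, Ep300, Cyp27a1 and Lpl stand apart in Ifnar-/-.

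The genes whose 4 values ran most like Nr1h3 were found by the Euclidean distance between log2 values set against the control mean, over the 4 arrays and 10778 genes. They were Clec4a3 (distance 0.022), Hnrnpl (0.053) and Gngt2 (0.065). Clec4a3, a C-type lectin gene, read 258 and 204 in the PBS pair, 244 in Ifnar-/- and 272 after sLTβR-Fc. In all, 22 genes lay within a distance of 0.1, and with 4 arrays such likeness is a description only.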

How the data were processed

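RNA of sorted marginal zone macrophages was extracted with Trizol, labelled with biotin and hybridised to Illumina arrays, per the labels' protocols. GenomeStudio 2011.1 is named in the submitters' processing notes. The authors deposited 1 linear intensity per probe and array. No source used here states whether background was subtracted or arrays were scaled. The most frequent deposited intensity was 99.2 to 108, and upper quartiles were 146 to 188. Probe names came from the platform annotation, and 10378 probes with no symbol and 18 with several were left out.

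Here, intensities were quantile normalised, floored and put on the log2 scale. Every gene that passed the background limit on 1 array or more entered limma 3.58.1 (R 4.3.3), as a model of the 3 groups with a mean-variance trend and Benjamini-Hochberg adjustment to 0.05. Only the PBS pair gives residual freedom (1 degree), and the lone arrays are taken to vary like it. The restricted fit keeps genes that passed on all 4 arrays. Its prior had 3900 degrees of freedom, so the pooled trend of spread with intensity all but replaced the control gap of each gene. Both fits were tested on simulated data, where the restricted fit recovered planted changes and the fit over all genes did not. Such a test cannot show whether the lone arrays do vary like the PBS pair, since they have no replicate. All members were named. From each pathway list the rule named, for each comparison, up to 2 genes 2-fold outside both controls, or otherwise the 1 gene with the largest difference outside both. Rxrb, Ch25h, Scd2, Lrp1, Tbl1xr1, Ncoa1, Apoc2 and Insig2 were added after their values were seen. The members, lists and settings were chosen with earlier results of these data known. Alternatives in scaling, floor, background, filter, probe choice, fold and control array were run.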

Additional observations from a re-analysis of the deposited data

How the results depend on the processing

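The count of members 2-fold apart stayed at 0 on the Ifnar-/- array under all alternatives but a 1.5-fold rule, which gave 1 (Scd1). It stayed at 0 on the sLTβR-Fc array except in the values as deposited, which gave 1 (Lpcat3, lower). Between the Ifnar-/- and sLTβR-Fc arrays it stayed at 1 (Scd1) except under the 1.5-fold rule, which gave 2 (Lpcat3 and Scd1). Without either control replicate both counts against the controls remained at 0. limma called 0 genes over all genes compared, and 2007, 2427 and 1709 among genes above background on all arrays, for Ifnar-/-, sLTβR-Fc and the direct comparison. Repeating that restricted fit under 4 other settings, chosen after seeing the data, gave 72 adjusted p-values for 6 members, of which 60 stayed on their side of 0.05. Scd1 was lost in the Ifnar-/- comparison as deposited (0.0931), under median scaling (0.175) and with the floor doubled (0.12), and the cause was not tested. Abca1 (0.0297) and Scd1 (0.00331) passed on the sLTβR-Fc array as deposited and Abcg1 (0.0472) with the floor doubled. The median of all genes on the sLTβR-Fc array moved to -0.18 as deposited and to 0.17 under median scaling. Signal over background limits Mylip, Pltp and Srebf1. No paired analysis was possible because the Ifnar-/- and sLTβR-Fc groups have 1 array each and the labels give no pairs.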
